A study of Mus musculus with 6 samples.

Results

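The chaperones of the endoplasmic reticulum (ER) and the transcription factors of the unfolded protein response were followed in 6 libraries of skeletal muscle from mice lacking PRR14, a nuclear protein. The 10 genes were picked by symbol: Hspa5, Hsp90b1, Calr, Pdia3, Pdia4, Pdia6, Xbp1, Atf4, Ddit3 and Herpud1, among 22036 gene rows. All 10 passed the filter on low counts and were tested among 9229 genes. A second row with the symbol Ddit3 (ENSMUSG00000116429, an overlapping gene model on chromosome 10) had 0 counts in every library and was not tested. All 6 libraries carried the knockout genotype (KO), with no wild-type or uninjected muscle in the comparison. AAV, a viral vector used to deliver genes, had been injected 1 month earlier and carried GFP in 3 libraries and MEF2C with GFP (labelled MEF2C-GFP) in the other 3. MEF2C is a transcription factor of muscle genes. The sources used here do not name the muscle, the promoter in the vector, the age or the sex, nor do they say whether replicates were separate animals.

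Proteins that enter the ER are folded there by chaperones of its lumen and linked by disulfide isomerases. When unfolded protein builds up, the 3 membrane sensors IRE1 (gene Ern1), PERK (Eif2ak3) and ATF6 start the unfolded protein response. IRE1 splices Xbp1 mRNA so that it encodes an active transcription factor, PERK phosphorylates eIF2alpha and favours translation of ATF4, and ATF6 is cut free to act in the nucleus. These factors raise chaperone genes, the degradation machinery of the ER and, under lasting stress, Ddit3, which encodes CHOP. In a muscle fibre most of the ER is the sarcoplasmic reticulum, the calcium store.

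The proximal promoters were read for the elements through which this response is known to act. The best known is the ER stress response element (ERSE), written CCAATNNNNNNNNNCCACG, to which NF-Y and ATF6 bind together. ERSE-II is ATTGGNCCACG. The 250 bases before the RefSeq start site (build GRCm38.p6) were searched on both strands, and all 10 members had a window. An exact ERSE lay in 4 of the 10 windows (Hspa5, Hsp90b1, Calr and Pdia6), against 0.113% of 32851 windows of the same length over all genes. Hsp90b1 had a pair of them, one on each strand. ERSE-II lay in the window of Herpud1 alone among the members, against 0.0304% of all windows. Motifs and members were both picked from what is known of this response. The shares are therefore a description and no test of enrichment. The sites are printed 5′ to 3′ on the strand of the motif, with the motif in capitals and 5 bases on either side:
Hspa5 (chr2:34772020-34772048, plus strand): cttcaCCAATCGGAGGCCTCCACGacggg
Hsp90b1, distal (chr10:86705633-86705661, minus strand): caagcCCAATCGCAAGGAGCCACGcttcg
Hsp90b1, proximal (chr10:86705528-86705556, plus strand): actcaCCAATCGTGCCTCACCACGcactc
Calr (chr8:84847070-84847098, plus strand): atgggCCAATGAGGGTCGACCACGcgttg
Pdia6 (chr12:17266486-17266514, plus strand): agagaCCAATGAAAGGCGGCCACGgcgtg
Herpud1, ERSE-II (chr8:94386372-94386392, plus strand): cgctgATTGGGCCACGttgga

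The Hspa5 element began 65 bases before the RefSeq start, and the distal and proximal elements of Hsp90b1 lay between 212 and 89 bases before it. In GENCODE vM21 the stretch printed for Hspa5 lies in an exon of a longer Hspa5 transcript, the stretches of Hsp90b1, Calr and Pdia6 in no annotated gene, and that of Herpud1 inside the antisense gene Gm15890 but in no exon. Of the other elements searched, the core TGACGTG of the XBP1-bound UPR element was in the Hspa5 window (1.65% of all windows), and the ATF4-bound CARE, TGATGNAA, in the Herpud1 window (3.45%). The CCAAT box, whose letters are also part of the ERSE and, on the opposite strand, of ERSE-II, lay in 9 member windows (33.8% of all windows), all but that of Xbp1. These are letter matches and not measured binding. Only exact letters in these 250 bases were searched, so a window without a match does not show that a member is outside the response.

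**Figure D1:**
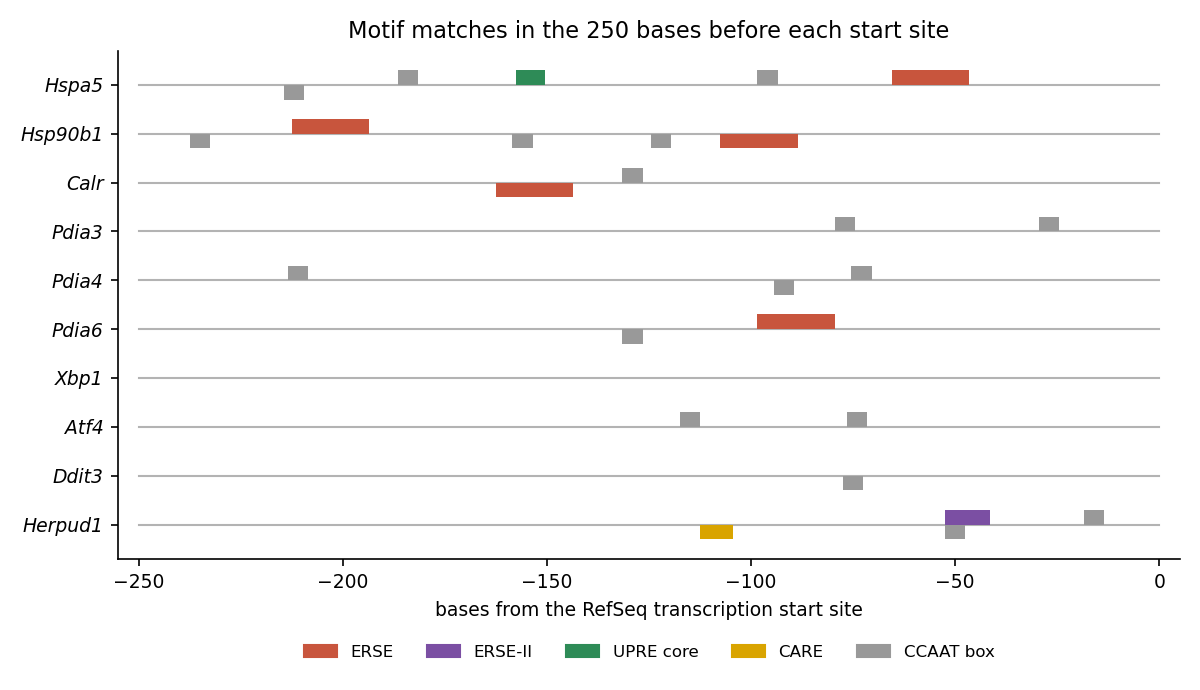
Motif matches in the 250 bases before the RefSeq start site of each member, with distance from the start in bases on the horizontal axis. Boxes above a line are on the strand of the gene and boxes below it on the other strand. CCAAT boxes inside an ERSE are covered by it, and 4 members carry at least 1 ERSE.

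Listed counts ran from 3370833 to 3900617 per library. Levels are normalised CPM, the read count of a gene relative to the TMM-scaled total of its library, and the values of a group follow the order of replicates 1, 2 and 3. Mef2c did not tell the labels apart in 2 of the 3 MEF2C libraries: its level was 234, 196 and 371 CPM there and between 223 and 261 in the GFP libraries, so groups are named here by their labels. Prr14, the gene of the knockout, kept 11 to 30 counts per library, and the deleted part is not given. All 8 skeletal muscle markers looked at (such as Acta1, Ckm and Ttn) had counts, as had all 8 of the slow-fibre, neutrophil and adipocyte lists, in at least 1 library. The muscle markers summed to 105521 to 119237 CPM in the MEF2C libraries and to 126420 to 149868 in the GFP libraries. Slow-fibre markers summed to 1608, 1556 and 376 CPM with MEF2C and to at most 209.6 in the GFP libraries. Neutrophil markers summed to 1246 CPM in MEF2C replicate 1, to 78.7 in GFP replicate 3 and to at most 6.97 in the others. Adipocyte markers summed to 2210 CPM in MEF2C replicate 2 and to between 1025 and 1578 elsewhere. In bulk muscle, fewer cells of a type and less RNA per cell cannot be told apart.

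No member differed between the groups by edgeR's quasi-likelihood test at an adjusted p under 0.05, where 7 of 9229 genes (0.0758%) were called. No member had an unadjusted p under 0.05 either, against 5.71% of all tested genes (527), and DESeq2 and limma-voom called 0 members too. The log2 fold changes, MEF2C minus GFP, lay between -0.24 (Atf4) and 0.25 (Ddit3). Of the members 4 were positive and 6 negative, with a median of -0.02, beside 0.01 over all tested genes. Scaling by library totals without TMM moved the median of all genes to 0.14 and that of the members to 0.10. Under it Hspa5, Calr, Pdia6 and Xbp1 turned positive, so that the signs of these 4 rest on the scaling.

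**Figure D2:**
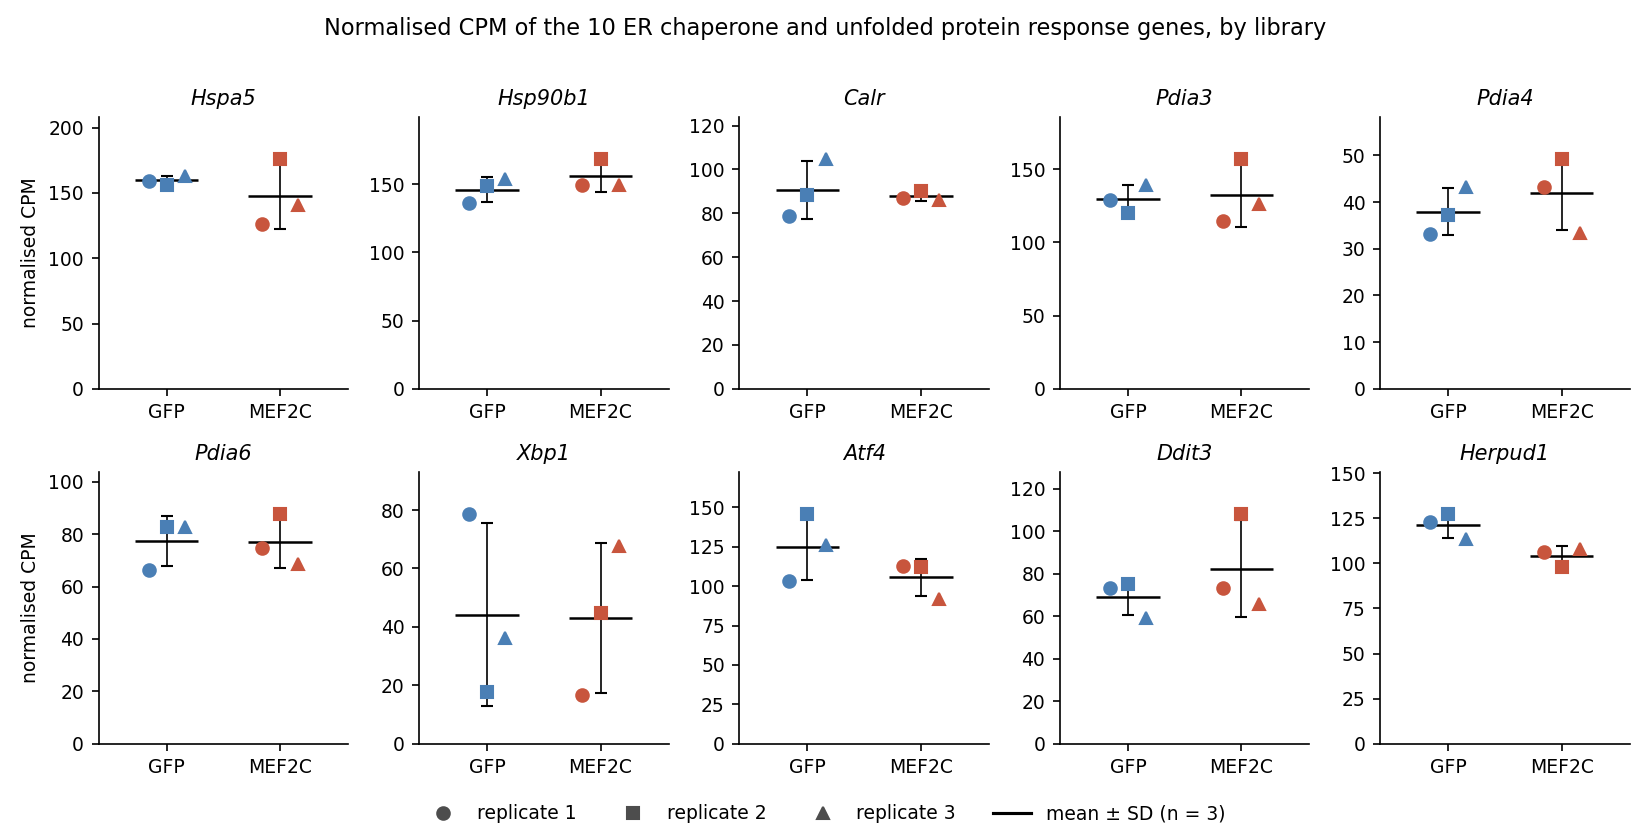
Normalised CPM of each member on vertical axes from 0, with 1 point per library (shape gives the replicate number, which does not pair libraries across groups) and lines for the mean and SD of 3 libraries. The groups share their range for every member except Herpud1, and Xbp1 spreads from 16.6 to 78.8 CPM.

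No difference between the groups was called for the luminal chaperones. Hspa5, which encodes BiP, the Hsp70 of the ER lumen and the protein that holds the stress sensors inactive (ENSMUSG00000026864, GRCm38 chr2:34771970-34777547, protein-coding), was read at 126, 176 and 141 CPM in the MEF2C libraries. In the GFP libraries it was at 159, 156 and 163 CPM. The GFP libraries were close together and lay inside the range of the MEF2C libraries, which held both the highest and the lowest value. The log2 fold change was -0.11 ± 0.14 (SE), with a 95% interval from -0.41 to 0.19, or 0.750 to 1.14 as a fold (edgeR adjusted p = 0.993). Leaving out single libraries moved it from -0.26 (without MEF2C replicate 2) to -0.02 (without MEF2C replicate 1).

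Hsp90b1 (ENSMUSG00000020048, chr10:86690209-86705509), the Hsp90 of the ER known as GRP94, stood at 149, 169 and 149 CPM in the MEF2C libraries and at 136, 148 and 153 in the GFP libraries. The groups overlapped, and the difference was 0.09 ± 0.13 on the log2 scale (95% interval -0.18 to 0.36, edgeR adjusted p = 0.993). Calr (ENSMUSG00000003814, chr8:84841850-84846934) encodes calreticulin, a lectin chaperone that also binds calcium. Its values were 86.8, 90.4 and 86.2 CPM in the MEF2C libraries, a narrow band, and 78.8, 88.4 and 104.9 in the GFP libraries, which enclosed it. The log2 fold change of Calr was -0.05 ± 0.14 (95% interval -0.35 to 0.25, edgeR adjusted p = 0.993).

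The protein disulfide isomerases make and rearrange disulfide bonds. Pdia3 (ENSMUSG00000027248, chr2:121413775-121438687), the isomerase ERp57 that works with calreticulin, had 114, 157 and 126 CPM in the MEF2C libraries and 129, 120 and 139 in the GFP libraries. The GFP values again fell between the extremes of the MEF2C group, with a log2 fold change of 0.03 ± 0.14 (95% interval -0.28 to 0.34, edgeR adjusted p = 0.993). Pdia4 (ENSMUSG00000025823, chr6:47796141-47813430), known as ERp72, had the fewest counts of the members, 895 over all libraries. It stood at 43.3, 49.3 and 33.4 CPM in the MEF2C libraries and at 33.2, 37.3 and 43.2 in the GFP libraries, nearly the same range but for MEF2C replicate 2. Its log2 fold change was 0.15 ± 0.18 (95% interval -0.23 to 0.52, edgeR adjusted p = 0.993), and 0.01 without MEF2C replicate 2 but 0.29 without MEF2C replicate 3. Pdia6 (ENSMUSG00000020571, chr12:17266545-17284770), an isomerase that also acts on IRE1, stood at 74.6, 87.9 and 68.5 CPM against 66.4, 82.6 and 82.9. The group means of Pdia6 were 77.0 ± 9.93 and 77.3 ± 9.48 CPM (SD, n = 3 per group). On the log2 scale they differed by -0.01 ± 0.15 (95% interval -0.33 to 0.31, edgeR adjusted p = 0.998).

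Under TMM scaling, the intervals of these 6 genes set the size of change that the libraries could still hide. None reached below -0.41 or above 0.52 on the log2 scale. With library totals instead, the log2 fold changes of Pdia4 and Hsp90b1 were 0.27 ± 0.17 and 0.22 ± 0.11, so these limits rest on the scaling. Summed, the 6 genes made up 594, 730 and 604 CPM in the MEF2C libraries and 602, 633 and 687 CPM in the GFP libraries, so the highest library was 1.23 times the lowest. Of the 6, 3 were positive and 3 negative under TMM scaling, and all were positive with library totals.

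**Figure D3:**
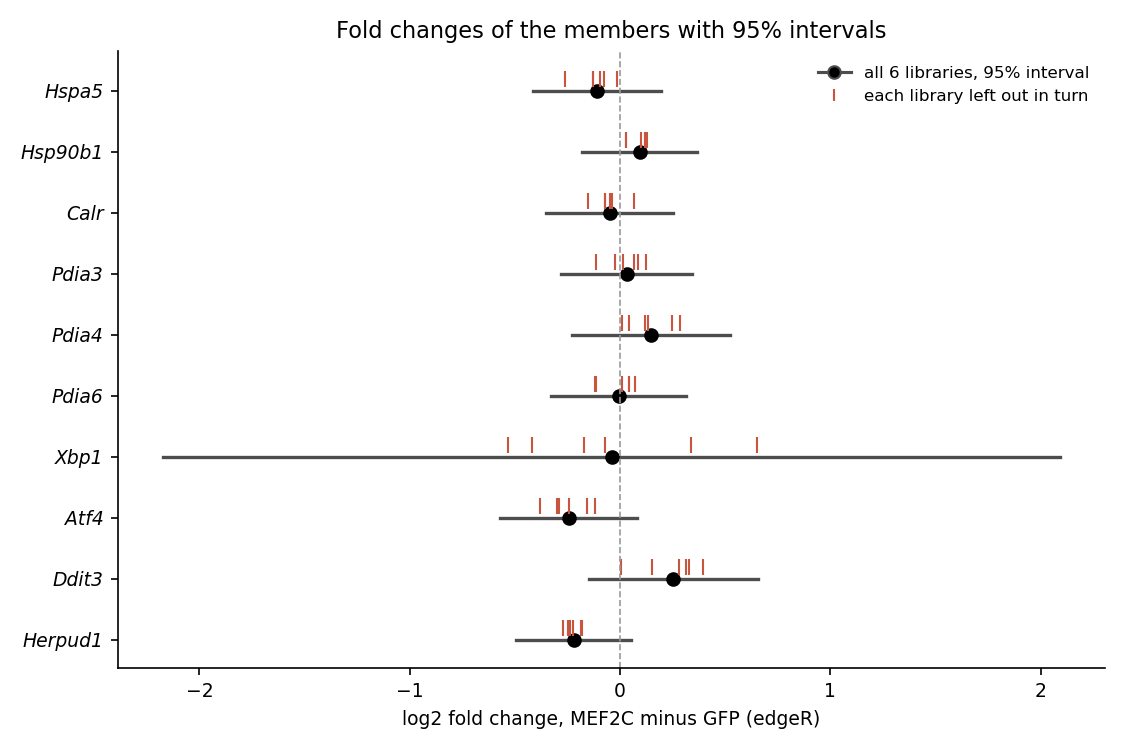
Log2 fold change (MEF2C minus GFP) of each member on the horizontal axis, as a black point with its 95% interval, and above it a tick for each fit that left out 1 library. All intervals include 0, and that of Xbp1 runs from -2.17 to 2.09.

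Among the transcription factors, Xbp1 varied far more than the other members, and it did so inside both groups. Xbp1 (ENSMUSG00000020484, chr11:5520659-5525893), the target of IRE1, was at 16.6, 44.6 and 67.8 CPM in the MEF2C libraries. In the GFP libraries it was at 78.8, 17.5 and 36.3 CPM. MEF2C replicate 1 and GFP replicate 2 were the low libraries, MEF2C replicate 3 and GFP replicate 1 the high ones. GFP replicate 1 held 4.49 times the level of GFP replicate 2, from 266 and 55 counts, whose exact Poisson 95% intervals were 69.6 to 88.9 and 13.2 to 22.8 CPM and cover counting error only. MEF2C replicate 3 held 4.09 times the level of MEF2C replicate 1, from 280 and 64 counts. The group means of Xbp1 were almost equal, 43.0 ± 25.6 and 44.2 ± 31.4 CPM (SD, n = 3 per group). The log2 fold change was -0.04 ± 0.79, and its 95% interval, from 0.222 to 4.26 as a fold, left changes of either sign possible (edgeR adjusted p = 0.998). Leaving out single libraries moved the fold change of Xbp1 from -0.53 (without MEF2C replicate 3) to 0.65 (without GFP replicate 1). Plasma cells are rich in Xbp1, and the 6 plasma cell and B cell markers in the table, each with counts in at least 1 library, summed to 30.1, 10.5 and 6.53 CPM in the MEF2C libraries and 3.85, 8.30 and 13.8 in the GFP libraries. Their part in the spread of Xbp1 was not tested. The counts are per gene and do not separate spliced from unspliced Xbp1.

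The spread of Xbp1 was set beside that of all genes. Its pooled within-group SD of log2(CPM + 0.5) was 1.05, where the median of all tested genes was 0.26 and 58 genes (0.628%) had a larger one. Among the 2149 tested genes with a mean count within 2-fold of that of Xbp1, 0.745% had a larger SD. At the other end stood Herpud1 with an SD of 0.08, exceeded by 97.4% of all tested genes and by 93.4% of the 1050 genes of like count. Of the 10 members 8 were below the median SD of all genes, Xbp1 and Ddit3 being the exceptions. Beside genes of like count, Herpud1, Hsp90b1 and Calr had a smaller SD than most, and the other members did not. The share of such genes with a larger SD was 86.7% for Hsp90b1 and 61.2% for Calr. It was 45.8% for Pdia6, 43.8% for Hspa5, 40.6% for Pdia3, 34.4% for Pdia4, 29.0% for Atf4 and 15.6% for Ddit3. The members had mean counts between 149 and 570 per library.

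**Figure D4:**
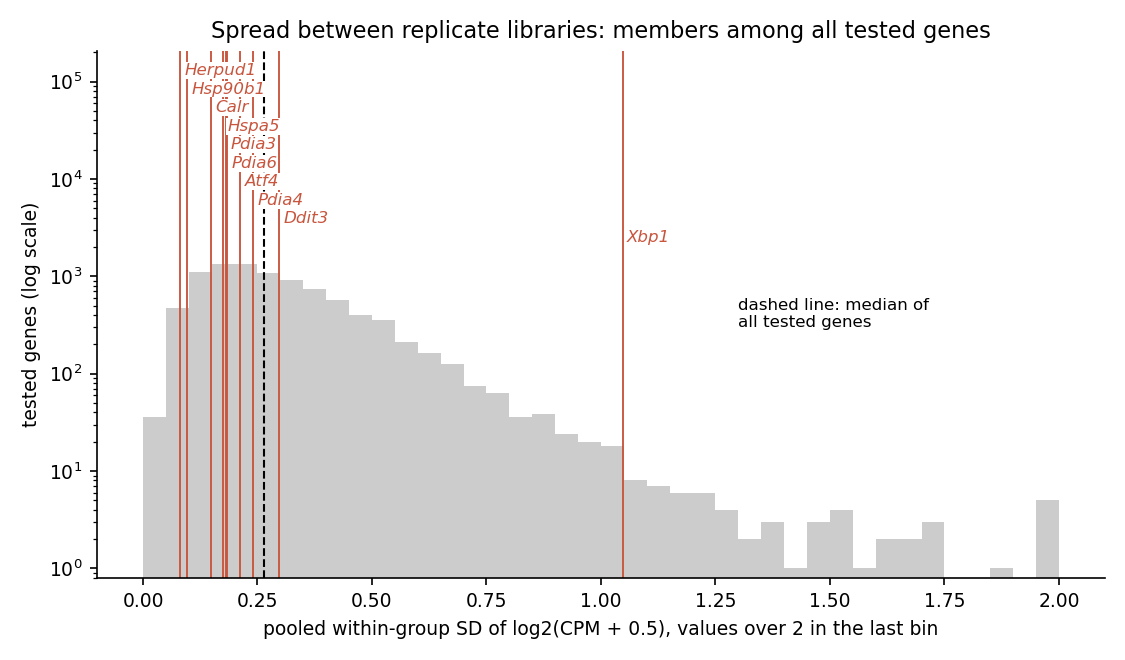
Number of tested genes (log axis) by the pooled within-group SD of log2(CPM + 0.5), with a red line for each member and a dashed line for the median of all genes, 0.26. Xbp1 stands at 1.05, while the other members lie between 0.08 and 0.30.

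Atf4 (ENSMUSG00000042406, chr15:80255184-80257541), the factor translated when eIF2alpha is phosphorylated, stood at 113, 112 and 92.0 CPM in the MEF2C libraries and at 103, 146 and 126 in the GFP libraries. GFP replicates 2 and 3 were above every MEF2C library, and GFP replicate 1 was below 2 of them. The log2 fold change of Atf4 was -0.24 ± 0.15 (95% interval -0.57 to 0.08, edgeR adjusted p = 0.930), and ran from -0.38 without GFP replicate 1 to -0.12 without GFP replicate 2. Much of the control of ATF4 is known to lie in translation, which mRNA counts do not show. Ddit3 (ENSMUSG00000025408, chr10:127290774-127296288), which encodes the stress factor CHOP, had 73.3, 108 and 65.6 CPM in the MEF2C libraries and 73.2, 75.0 and 59.4 in the GFP libraries. Only MEF2C replicate 2 lay above the GFP range. The fold change of Ddit3 was 0.25 ± 0.19 on the log2 scale (95% interval -0.15 to 0.65, edgeR adjusted p = 0.965). Without MEF2C replicate 2 it was 0.00402. Ddit3 overlaps Mars on the opposite strand, to which 449 counts were given in all against 1695 for Ddit3, and since the use of strand is not given, reads of the shared part cannot be told apart.

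Herpud1 was the member whose groups did not overlap. Herpud1 (ENSMUSG00000031770, chr8:94386438-94395377), a membrane protein of ER-associated degradation and a known target of the response, had 106, 98.1 and 108 CPM in the MEF2C libraries and 123, 128 and 113 in the GFP libraries. Every MEF2C library was below every GFP library, with the nearest values 108 and 113 CPM. Such a gap downward was found in 5.33% of all tested genes, and in either direction in 11.1%, so that 1 of 10 members is close to the background. The log2 fold change was -0.22 ± 0.13 (95% interval -0.49 to 0.05), or 0.859 as a fold, and did not pass the test (edgeR adjusted p = 0.928).

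Levels of different genes were compared per length, as CPM per kilobase of the longest coding transcript, in the GFP libraries. In that order Ddit3 (77.7 ± 9.60, SD, n = 3) and Atf4 (72.5 ± 12.4) came first, followed by Herpud1 (62.1 ± 3.69). Hsp90b1 (51.7 ± 3.18), Pdia3 (46.8 ± 3.45), Hspa5 (43.5 ± 0.946), Calr (41.5 ± 6.05) and Pdia6 (35.5 ± 4.36) made up the middle. Xbp1 (20.8 ± 14.7) and Pdia4 (15.8 ± 2.10) were the lowest per kilobase. Neighbours in this order had overlapping ranges except Herpud1 and Hsp90b1. Nanopore reads follow whole cDNA molecules, so the scaling by length is a convention here, and it decides the order. On CPM without length, the GFP means put Hspa5 (159.6), Hsp90b1 (145.9) and Pdia3 (129.5) first, and Ddit3 (69.2) came below all but Xbp1 and Pdia4.

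The luminal genes varied in the same direction within the groups. With the group means removed, Pearson's r of log2(CPM + 0.5) over the 6 libraries was positive for all 15 pairs of the 6 luminal members, from 0.24 (Hspa5 with Calr) to 0.96 (Hspa5 with Pdia3), with a median of 0.69. Over all pairs of the 7137 tested genes with a mean of at least 20 counts, 50.1% were positive and 11.6% reached that median. MEF2C replicate 2 was the highest of all libraries for 6 members (Hspa5, Hsp90b1, Pdia3, Pdia4, Pdia6 and Ddit3), and it also had the largest adipocyte marker sum, 2210 CPM, whose part in this was not tested. GFP replicate 1 was the lowest library for 4 members (Hsp90b1, Calr, Pdia4 and Pdia6). Herpud1 ran against all 6 luminal members, with r from -0.84 to -0.56. Its SD within groups was only 0.08, and within each group the Poisson intervals of its libraries overlapped. The part of counting error in the r values of Herpud1 was not tested. Xbp1 did not follow the luminal members, with r from -0.50 (Pdia6) to 0.45 (Pdia3), and it was opposite to Atf4 at -0.89. These r values describe 6 libraries with shared normalisation and carry no test.

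The genes most like Hspa5 by the same measure, among 7136 with a mean of at least 20 counts, were Agpat2 (r = 0.999), Cd34, Pthlh, Islr and Tmem53 (each 0.988). Agpat2, an enzyme of glycerolipid synthesis, stood at 79.4 CPM in MEF2C replicate 2 and between 13.0 and 24.2 in the others. Of the luminal members Pdia3 ranked 37 in likeness to Hspa5, Hsp90b1 452, Pdia6 1001, Pdia4 1329 and Calr 2397. Many other genes had a higher r with Hspa5. Since Hspa5 varied little in the GFP libraries (156 to 163 CPM), these r values and ranks rest mostly on the MEF2C libraries. Herpud1 ranked 6489. The genes most like Xbp1, looked up after its values had been seen, were Snx21, Rbfa, Cbx5, Secisbp2l and Fam220a, the first at 0.999 and the last at 0.997. Rbfa, a mitochondrial ribosome assembly factor, had 3.63, 10.2 and 15.7 CPM in the MEF2C libraries and 20.4, 3.51 and 9.01 in the GFP libraries, the same order of libraries as Xbp1 within each group. Of the 77 pathway genes described next that had a mean of at least 20 counts, 34 had a positive r with Xbp1 and 43 a negative one, with a median of -0.10. They ran from 0.92 (Eif2ak1, the heme-regulated eIF2alpha kinase) to -0.97 (Srprb, the other subunit of the signal recognition particle receptor). Eif2ak1 had only 54 to 75 counts per library, and the part of counting error in its r was not tested. The known XBP1 targets Dnajc3, Hyou1, Sdf2l1, Dnajb9 and Sec61a1, named after their values had been seen, did not share a direction, at 0.91, 0.21, 0.22, -0.59 and -0.37. They are a pick from the 77 and do not stand for all targets of XBP1. The other ER chaperone and degradation genes ran from 0.90 (Derl1 and Txndc5) to -0.94 (Sil1).

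The rest of the pathway was read from 6 lists, and 0 genes of these lists passed edgeR's test at an adjusted p under 0.05 in either direction, while 6 of 92 tested (6.52%) had an unadjusted p under 0.05, against 5.71% of all tested genes. Groups did not overlap for 10 of the 92 (10.9%), against 11.1% of all. The 12 genes named by the rule below were not called by DESeq2 or limma-voom either, where these gave an adjusted p. Of 21 tested folding genes outside the members 11 were positive and 10 negative, with a median log2 fold change of 0.02. Dnajc10, a disulfide reductase, stood at 27.7, 29.6 and 24.7 CPM in the MEF2C libraries against 20.4, 19.1 and 22.0 in the GFP libraries. The difference was 0.41 ± 0.17 on the log2 scale (edgeR adjusted p = 0.850). P4hb, the classical protein disulfide isomerase, stood at 131, 148 and 142 CPM against 154, 179 and 154, with -0.21 ± 0.13 (edgeR adjusted p = 0.930). The groups of Dnajc10 and of P4hb did not overlap, which 5.75% of tested genes showed upward and 5.33% downward.

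The sensor genes had few counts. Ern1 had between 4 and 12 counts per library and Eif2ak3 between 0 and 6, so that neither was tested, while Atf6 had 21 to 54 and was. Of 6 tested genes among the sensors and ER-membrane factors 4 were positive, with a median of 0.18. Atf6 stood at 10.6, 13.4 and 10.4 CPM in the MEF2C libraries and at 11.6, 6.70 and 8.48 in the GFP libraries (log2 fold change 0.36 ± 0.26), and Creb3, a membrane-bound factor of the same type, at -0.21 ± 0.15 on the log2 scale. Of the 5 tested eIF2alpha kinases and phosphatase subunits 2 were positive, with a median of -0.04. Eif2ak2, the double-stranded RNA kinase PKR, had a log2 fold change of 0.38 ± 0.38, and Ppp1r15b, a subunit of the eIF2alpha phosphatase, of 0.14 ± 0.23.

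Targets of ATF4 and CHOP were listed as 27 genes, of which 20 were tested, 7 positive and 13 negative, with a median of -0.07. The hormones Gdf15 and Fgf21, secreted by muscle under ER or mitochondrial stress, had at most 1 count in any library, and Trib3, a pseudokinase induced by CHOP, had 1 to 6. A count of 0 allows up to 3 counts, or 0.769 to 0.890 CPM here on library totals without TMM scaling. Asns, asparagine synthetase, stood at 6.22, 7.47 and 6.29 CPM in the MEF2C libraries and at 2.07, 5.10 and 2.92 in the GFP libraries. Its groups did not overlap and its log2 fold change was 1.00 ± 0.35, which did not pass the test (edgeR adjusted p = 0.753). Aldh18a1, of proline synthesis, went the other way, at -0.66 ± 0.33 (edgeR adjusted p = 0.916). Ddit4, an inhibitor of mTORC1 named here after its values had been seen, stood at 78.0 CPM in MEF2C replicate 1 and between 9.81 and 22.3 CPM in the others. MEF2C replicate 1 also had the highest neutrophil marker sum. GFP replicate 3, with the next highest sum (78.7 CPM), had the lowest Ddit4, 9.81 CPM. The part of neutrophils in the level of Ddit4 was not tested.

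No gene of ER-associated degradation or of import into the ER was called. Of 21 tested degradation genes 10 were positive, with a median of -0.02. Vcp, the ATPase that pulls proteins out of the ER membrane, stood at 191, 202 and 227 CPM in the MEF2C libraries against 259, 245 and 231, which made -0.24 ± 0.13 on the log2 scale (edgeR adjusted p = 0.927). Syvn1, the ubiquitin ligase HRD1, had -0.58 ± 0.34 (edgeR adjusted p = 0.928). Of 19 translocation and signal peptide genes 8 were positive, with a median of -0.01, and 4 had an unadjusted p under 0.05, which 5.71% of all tested genes had. Of these 4, Srpr, Sec61b and Spcs2 were negative and Spcs3 positive. Srpr, the receptor of the signal recognition particle, stood at 177, 176 and 186 CPM in the MEF2C libraries and at 274, 215 and 223 in the GFP libraries, with no overlap. The log2 fold change of Srpr was -0.40 ± 0.13 (edgeR adjusted p = 0.736). Spcs3, a subunit of signal peptidase, was at 0.37 ± 0.15 (edgeR adjusted p = 0.808), and its groups did not overlap either.

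**Figure D5:**
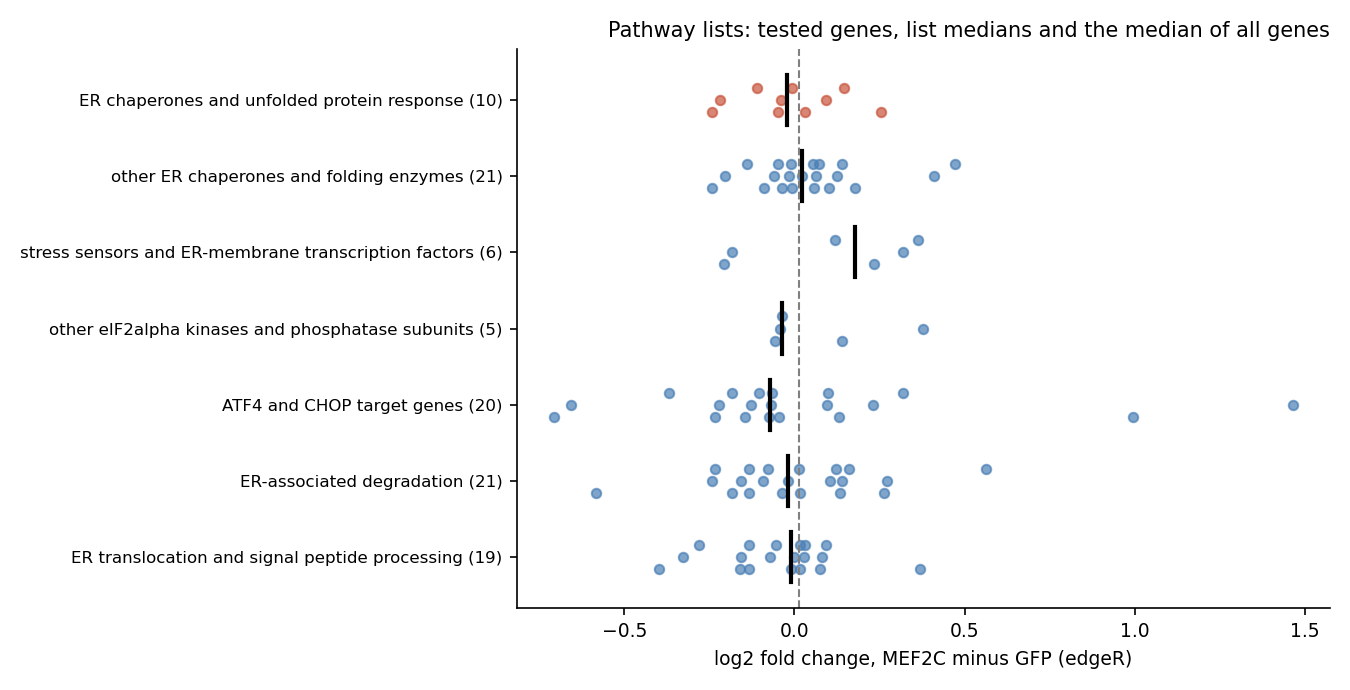
Log2 fold change (MEF2C minus GFP) of the tested genes of each list, with the number tested in brackets, the list median as a black bar and the median of all 9229 tested genes, 0.01, as a dashed line. List medians run from -0.07 to 0.18, and the 2 points at the right of the ATF4 and CHOP list are Asns and Ddit4.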

How the data were processed

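Nanopore PCR-cDNA libraries, made from polyA RNA with template switching per the labels' protocols, carry no molecular identifiers, so Poisson intervals and floors cover counting error only, while the intervals of fold changes come from the fit and include the spread between libraries. The authors deposited 1 table of read counts per gene and of CPM per library. The counts were tested as deposited. The deposited CPM, of which the listed genes made up 95.6% to 96.4% in each library, were only checked against the counts. The submitters' processing notes name minimap2, GRCm38 and DESeq2 1.6.3. For the counter, annotation and strand setting the sources used here state nothing. The 30 rows naming no gene held 0 counts.

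Genes were filtered with edgeR 4.0.16 (filterByExpr, a minimum of 10 counts), scaled by TMM and tested by the robust quasi-likelihood test without covariates (R 4.3.3), with Benjamini-Hochberg adjustment over 9229 genes and calls at an adjusted p under 0.05. P-values measure the spread between these samples, which may be technical. On simulated counts of 9034 genes, 82.0% of 50 genes with a log2 change of 1 upward and 73.9% of 46 with the same change downward were recovered, with 8 false calls. The simulation gave every gene the same dispersion, so these shares do not measure power in the real libraries. There Asns, at a log2 fold change of 1.00, had an edgeR adjusted p of 0.753. Replicates differed beyond sampling noise (chi-square per degree of freedom 4.95 to 10.3). Alternatives used DESeq2 1.42.0 and limma 3.58.1, other scalings and filters, a replicate block and each library left out.

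Members and lists were chosen with earlier results of these data known. The text names all members, the called genes of each pathway list or else the 2 with the smallest p, and the 5 genes most like Hspa5. Coordinates are GENCODE vM21, promoters RefSeq.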

Additional observations from a re-analysis of the deposited data

How the results depend on the processing

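No member was called under any of the 15 alternatives, and the lowest adjusted p of a member was 0.629. A single member had an unadjusted p under 0.05 without MEF2C replicate 3 and 1 without GFP replicate 1. Atf4, Herpud1 and Hsp90b1 kept their sign in all of the alternatives. So did the 12 named pathway genes, in 176 values over genes and alternatives (6 adjusted p were not given by DESeq2). These 12 were chosen by smallest p in the same libraries, so their kept signs are partly built in. With library totals, the log2 fold change was 0.0193 for Hspa5, 0.0814 for Calr, 0.125 for Pdia6 and 0.0791 for Xbp1, and the median of the members 0.103. MEF2C replicate 3 alone against the GFP libraries, chosen after seeing the data and with a spread that comes from the GFP libraries alone, gave -0.089 for Ddit3, 0.601 for Xbp1, -0.056 for Pdia3 and -0.199 for Pdia4. Leaving out single libraries gave -0.154 to 0.0671 for Calr, 0.0283 to 0.127 for Hsp90b1, 0.00402 to 0.393 for Ddit3, -0.113 to 0.122 for Pdia3, -0.119 to 0.0702 for Pdia6, -0.532 to 0.653 for Xbp1, and 1 to 2 members without overlap. The count of 7 called genes became 35 without the filter, 3 with the strict filter, 27 by DESeq2, 0 with non-robust dispersion (557 at an unadjusted p under 0.05) and 0 (without GFP replicate 3, 386 at that level) to 22 (without MEF2C replicate 3). The cause was not tested. Replicate numbers do not pair the libraries: same-numbered deviations correlated at -0.23, 0.05 and -0.25, and no library correlated best with its own number. With the replicate block 2 genes and 0 members were called, and Xbp1 stood at 0.0623. Depth left the sensors Ern1 and Eif2ak3 untested.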
